A study of Mus musculus with 29 samples.

Results

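Gene expression in mouse hearts was compared between week 19, after 14 weeks without heart failure treatment (recovery), and week 5, at the end of that treatment (HF). The comparison used 5 recovery and 3 HF libraries, or 8 of the 24 libraries that entered the fit, chosen by their group labels and by no measured value. All mice were wild-type C57BL6 by the labels, 3 months old at the start and male by the study's methods. HF mice had 5 weeks of drinking water that held L-NAME, a blocker of nitric oxide synthases, at 0.3 mg/ml together with NaCl at 1%, and from week 1 received angiotensin II at 0.7 mg/kg per day from a subcutaneous osmotic pump that lasts 28 days. Recovery mice had the same 5 weeks of treatment and then plain water with the pump exhausted. The 5 libraries of untreated mice at week 19 (control) are given beside the results. The fit also held 2 HF libraries of week 3, during the treatment, and recovery libraries of weeks 7 (2), 9 (2), 11 (3) and 13 (2). They enter the shared estimate of the spread and not the fold changes. The tissue is labelled as ventricle or heart, while the methods name the apical part. Recovery mice were also 14 weeks older than HF mice, so that time off treatment and age cannot be told apart here. Untreated mice of week 5 were not analysed here. Nothing in the labels ties a library to an animal or a culture, and the p values measure the spread between libraries.

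Pressure overload together with loss of nitric oxide is known to drive cardiomyocytes to hypertrophy. The adult heart burns mainly fatty acids in mitochondria, couples excitation to contraction at dyads, where T-tubules meet the sarcoplasmic reticulum, and expresses alpha myosin in the mouse. A stressed ventricle returns toward a fetal program with natriuretic peptides, beta myosin and skeletal actin, and its fibroblasts lay down matrix. These processes were therefore described by 40 gene lists, and cell types by marker lists.

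Values are FPKM, fragments per kilobase of transcript, scaled to the mapped fragments of the library. A fold change is the difference of mean log2(FPKM + 0.5), recovery minus HF, with the standard error (SE) of the limma fit. A gene was called higher or lower when its Benjamini-Hochberg adjusted p over all 12759 genes tested was under 0.05. Each call was repeated without the HF library listed first, HF library 1, since that library stood apart.

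HF library 1 had a Pearson correlation across genes on the log2 scale of 0.952 and 0.956 with the other HF libraries, while those 2 had 0.984 with each other. Its summed FPKM of 13 atrial markers was far above all others, with 84391, 3009 and 2620 in the HF libraries against 573 to 1299 in recovery and 456 to 872 in control. The atrial sum includes Nppa, also a fetal gene, which is described below. As a median over the tested atrial markers of log2 minus the control mean, the HF libraries were at 5.05, 0.441 and -0.0596. Recovery libraries were at -0.235 to 0.135 on this measure. Myl7, the atrial myosin light chain, was at 18388, 152 and 6.16 FPKM in HF and at 0 to 0.794 FPKM in recovery. The ventricular marker sum of HF library 1 was low, with 31086, 72430 and 68069 in HF and 46932 to 81149 in recovery. That sum lacks Myh6, which is listed at 0 in all 13 libraries, and in control also Myl2, so the control sum of 31006 to 38634 was not comparable. Of the other 9 ventricular markers, 0 were called in either fit by limma's adjusted p, and 0 and 0 passed an unadjusted p with and without HF library 1.

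Other tissue markers were also higher in HF. The sum of 10 mesothelial markers was 109, 41.2 and 17.0 in HF and 4.64 to 6.96 in recovery, and 7 of the 9 tested were called lower (12.0% over all genes). Among 9 adipocyte markers, Cfd (adipsin) was at 214, 189 and 1.28 FPKM in HF and at no more than 0.241 FPKM in recovery, and Adipoq (adiponectin) at 10.5, 15.6 and 0.0516 and at 0.145, 0, 0.0614, 0.220 and 0.0748 FPKM. Both HF libraries 1 and 2 were high for these fat genes and HF library 3 was low. The sum of all 9 was 2458, 2794 and 3290 in HF and 1811 to 2625 in recovery, which overlap. The sum of 6 lung markers was 49.5, 0.502 and 0.268 in HF and 0.229 to 0.752 in recovery. The surfactant genes Sftpa1, Sftpb and Sftpd were listed at 0 in all 13 libraries, and Scgb1a1 made up nearly all of the lung sum in HF library 1. Relative depth, from the FPKM step of low genes, was 1.06 to 1.20 in HF and 0.728 to 1.13 in recovery, with recovery library 5 the shallowest. In whole tissue, fewer cells of a type and less RNA per cell cannot be told apart.

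**Figure D1:**
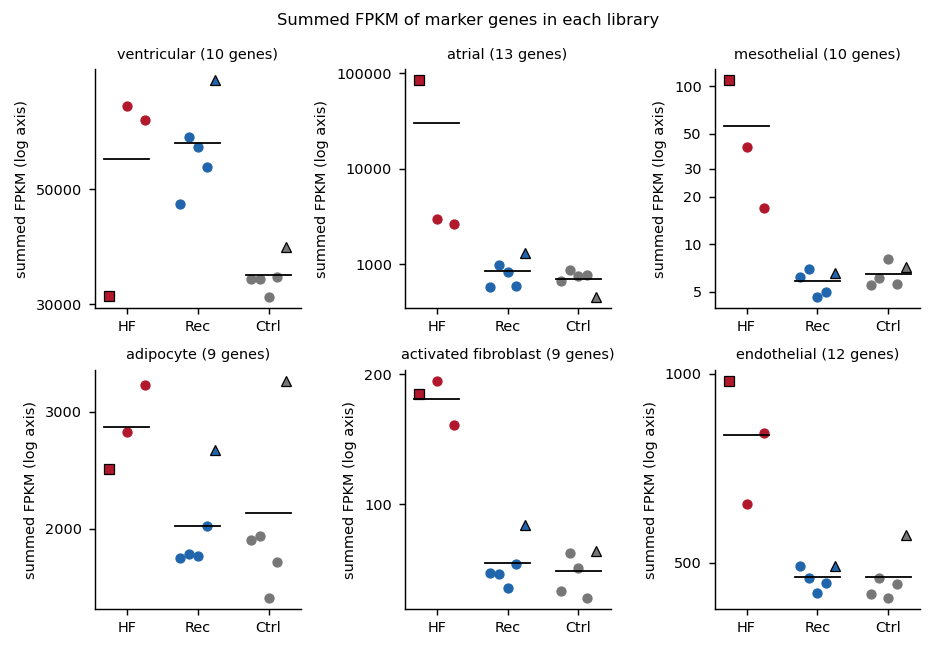
Summed FPKM of the marker genes of 6 cell types (log axis) by library, for HF (week 5), recovery (Rec, week 19) and control (Ctrl, week 19), with lines at the group means. The black-edged square is HF library 1, at 84391 for atrial markers against 1299 or less in recovery and control, and black-edged triangles are recovery and control library 5.

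Recovery library 5 and control library 5 were most often the library of their group nearest to HF. Recovery library 5 was the lowest recovery library for 660 of the 1567 genes called higher (42.1%) and the highest for 654 of the 1525 called lower (42.9%). Recovery library 1 was the lowest for a further 516 (32.9%) and the highest for 415 (27.2%). Control library 5, which the comparison does not use, was the lowest control library for 75.1% of the genes called higher and the highest for 61.5% of those called lower. Oaz2, an inhibitor of polyamine synthesis, was at 58.4, 54.5 and 51.9 FPKM in HF and at 3.99, 4.41, 7.33, 2.05 and 29.1 FPKM in recovery. Its control values were 5.30, 11.3, 7.04, 5.12 and 33.6 FPKM, with library 5 again the highest of the group. Without HF library 1 and recovery library 5 together, a setting added after the data were seen, 1019 genes (8.01%) were called higher and 901 (7.09%) lower.

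Recovery was higher than HF for 1567 genes (12.3%) and lower for 1525 (12.0%). Without HF library 1, 876 genes (6.90% of 12704) were higher and 669 (5.27%) lower, and 826 (6.51%) and 617 (4.86%) were called in the same direction both ways. The libraries of the groups did not overlap for 1794 genes higher (14.1%) and 1615 lower (12.7%), or 26.7% together. A change of at least 1 on the log2 scale was seen for 347 called genes higher and 385 lower, and for 217 and 207 without HF library 1. Changes of at least 2 were fewer upward, with 33 genes higher and 82 lower, and with 19 and 47 without HF library 1. The median fold change over all genes tested was -0.043 on the log2 scale, and -0.034 without HF library 1.

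**Figure D2:**
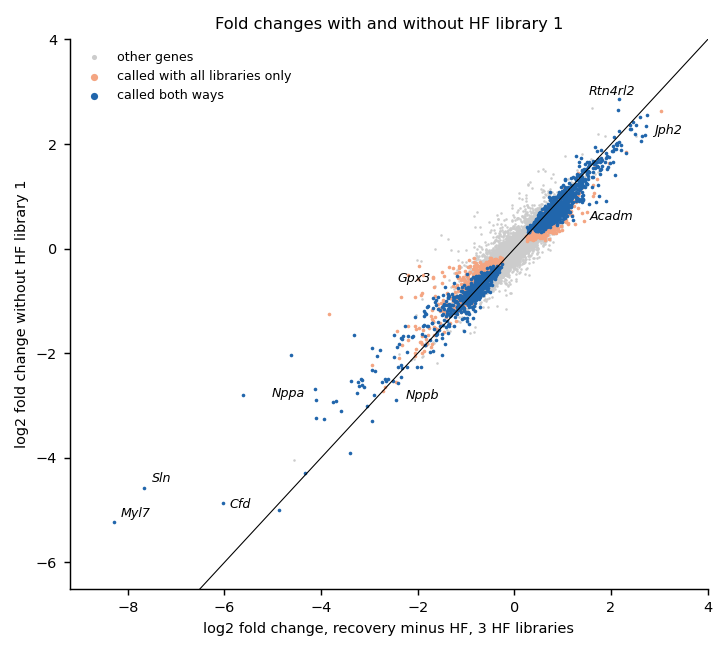
Log2 fold change of each gene, recovery minus HF, with all 3 HF libraries (x) and without HF library 1 (y), and a line of equal values. Blue points were called both ways and orange points only with all libraries, and genes listed at 0 in every library of a group are left out. Atrial genes such as Myl7 (-8.29 against -5.23) and Sln (-7.66 against -4.57) lie above the line, and Nppb (-2.41 against -2.58) close to it.

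Jph2, junctophilin, ties the T-tubule to the sarcoplasmic reticulum. It was at 7.80, 22.0 and 14.8 FPKM in the HF libraries and at 112, 98.3, 94.2, 117 and 59.2 FPKM in the recovery libraries. Every recovery library was at least 59.2 FPKM, above the highest HF library. Jph2 rose by 2.73 on the log2 scale (SE 0.38, adjusted p = 0.000128) and by 2.34 without HF library 1 (adjusted p = 0.00189). Dag1, dystroglycan, links the cytoskeleton to laminin and was at 3.63, 5.04 and 4.71 FPKM in HF and at 32.0, 26.5, 30.1, 27.3 and 15.9 FPKM in recovery. Dag1 rose by 2.41 on the log2 scale (SE 0.32, adjusted p = 7.89e-05) and by 2.28 without HF library 1 (adjusted p = 0.00101). Gna12, a G protein alpha subunit, was at 4.08, 4.95 and 6.65 and at 33.1, 40.5, 30.8, 34.4 and 22.9 FPKM. Gna12 rose by 2.52 on the log2 scale (SE 0.48, adjusted p = 0.00115) and by 2.37 without HF library 1 (adjusted p = 0.0106). Rtn4rl2, a Nogo receptor relative, was at 3.92, 0.705 and 1.45 and at 7.69, 13.1, 5.96, 10.9 and 9.28 FPKM. Rtn4rl2 rose by 2.13 on the log2 scale (SE 0.34, adjusted p = 0.000338) and by 2.64 without HF library 1 (adjusted p = 0.000131), so the larger value came without that library.

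Nudcd3, a co-chaperone, was at 0.997, 1.10 and 1.08 FPKM in HF and at 9.57, 9.17, 8.35, 10.4 and 4.28 FPKM in recovery, and rose by 2.45 on the log2 scale (SE 0.38, adjusted p = 0.000238) and by 2.42 without HF library 1 (adjusted p = 0.00234). Ccdc85c was at 0.654, 0.772 and 1.06 and at 10.2, 9.20, 7.21, 10.8 and 3.18 FPKM, and rose by 2.61 on the log2 scale (SE 0.58, adjusted p = 0.00362) and by 2.51 without HF library 1 (adjusted p = 0.0227). In both genes recovery library 5 was the lowest of its group and still above every HF library. Palld, palladin of the actin cytoskeleton, was at 2.09, 2.94 and 1.71 and at 22.9, 15.4, 13.4, 17.4 and 5.55 FPKM, and rose by 2.39 on the log2 scale (SE 0.38, adjusted p = 0.000305) and by 2.36 without HF library 1 (adjusted p = 0.00286). Zbtb16, a zinc finger repressor that glucocorticoids induce, was at 2.31, 1.64 and 1.92 and at 19.3, 9.98, 10.1, 14.1 and 4.23 FPKM, and rose by 2.15 on the log2 scale (SE 0.38, adjusted p = 0.000732) and by 2.26 without HF library 1 (adjusted p = 0.00385). The entry Mnk2, a kinase name, was at 0.392, 0.773 and 1.64 and at 8.52, 8.80, 7.14, 6.58 and 4.80 FPKM, and rose by 2.48 on the log2 scale (SE 0.42, adjusted p = 0.000517) and by 2.19 without HF library 1 (adjusted p = 0.00677). Smoc2, a matricellular protein, was at 0.883, 2.63 and 5.98 and at 17.4, 30.0, 17.4, 18.9 and 11.8 FPKM and rose by 2.62 on the log2 scale (SE 0.35, adjusted p = 7.89e-05) and by 2.06 without HF library 1 (adjusted p = 0.000577).

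Of the 10 largest falls, ranked without genes listed at 0 in a whole group of the fit, 6 were of genes on the marker lists of other tissues. Myl7, Sln and Myl4 are atrial, Msln and Upk3b are mesothelial and Cfd is from fat. Nppa, also on the atrial list, is not among those 10 and is described below with a log2 fold change of -4.12. Msln, mesothelin, was at 32.7, 10.5 and 2.28 FPKM in HF and at 0.0528, 0.106, 0, 0.120 and 0.164 FPKM in recovery. Msln fell by 4.10 on the log2 scale (SE 0.51, adjusted p = 5.12e-05) and fell by 3.24 without HF library 1 (adjusted p = 0.00028). Upk3b was at 22.5, 7.80 and 3.39 and at 0.0265, 0.0712, 0, 0.0603 and 0.371 FPKM and fell by 3.93 on the log2 scale (SE 0.44, adjusted p = 2.45e-05) and fell by 3.26 without HF library 1 (adjusted p = 0.000141). Sln, sarcolipin, was at 9904, 147 and 1.28 FPKM in HF, where library 3 was near the recovery range of 0 to 0.400 FPKM. Mybphl, another atrial gene, was at 487, 5.89 and 0.247 FPKM in HF and at most 0.0716 FPKM in recovery. Apoc1, an apolipoprotein, was at 68.7, 12.7 and 1.90 and at 0.271, 0.381, 0, 0.300 and 0.395 FPKM and fell by 4.11 on the log2 scale (SE 0.61, adjusted p = 0.000191) and fell by 2.90 without HF library 1 (adjusted p = 0.000652). Brms1 and the entry Pmi were high in every HF library, with 23.0, 19.4 and 22.4 and 33.2, 40.7 and 43.8 FPKM, and in recovery library 5 had 13.9 and 16.8 FPKM while the others were at most 0.339 and 0.622 FPKM. Control library 5 had 19.3 and 20.8 FPKM of them. CRLM3 was at 20.8, 9.03 and 6.32 FPKM in HF and at 0.374, 1.04, 0.606, 0 and 0.440 FPKM in recovery, and fell by 3.58 on the log2 scale (SE 0.45, adjusted p = 5.51e-05) and fell by 3.11 without HF library 1 (adjusted p = 0.00087). The entry 2410129H14Rik was at 2.13, 7.89 and 6.20 and at 0, 0, 0.000533, 0.000178 and 0.00136 FPKM and fell by 3.40 on the log2 scale (SE 0.84, adjusted p = 0.00687) and fell by 3.91 without HF library 1 (adjusted p = 0.0138). How far atrial, mesothelial or fat tissue in the HF samples took part in these falls was not tested.

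The fetal and hypertrophy genes fell as a group. Of 15 tested, 12 were called lower (12.0% of all genes) and 2 higher, and 10 were lower without HF library 1 (5.27%). The list median was -0.90 on the log2 scale, and -0.94 without HF library 1, against -0.043 over all genes. Promoters of this list that hold the letters CATTCC, the core of the muscle element M-CAT to which TEAD factors bind, are shown here because these genes fell together. Each line gives 60 bases upstream of the RefSeq start in GRCm38.p6, 5′ to 3′ on the gene's strand, with the match on either strand in capitals. They lie at chr4:147985768-147985827 (plus strand) for Nppb, at chr14:54994795-54994854 (minus strand) for Myh7, at chr8:123894789-123894848 (minus strand) for Acta1 and at chr19:36119935-36119994 (minus strand) for Ankrd1.
Nppb: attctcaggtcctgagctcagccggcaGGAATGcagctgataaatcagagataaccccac
Myh7: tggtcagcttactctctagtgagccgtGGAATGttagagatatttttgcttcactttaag
Acta1: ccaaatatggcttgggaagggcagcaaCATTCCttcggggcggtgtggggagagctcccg
Ankrd1: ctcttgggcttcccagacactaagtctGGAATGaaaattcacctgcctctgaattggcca

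A promoter here is 250 bases before to 50 after the start. CATTCC or its complement was in 5 of the 13 list members with a RefSeq promoter (38.5%), the fifth being Mybpc2, and in 14.6% of all 27025 promoters. All 5 members with the letters were called lower, as were 12 of the 15 tested members of the list. A match is a description and not a bound site.

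Nppb encodes B-type natriuretic peptide. It was at 1155, 1664 and 1610 FPKM in HF and at 201, 250.3, 232, 149 and 889 FPKM in recovery. Recovery library 5 was the highest of its group by far, though below each HF library, and control library 5 was also the highest of control, at 619 FPKM. Nppb fell by 2.41 on the log2 scale (SE 0.42, adjusted p = 0.000569) and fell by 2.58 without HF library 1 (adjusted p = 0.00256). Nppa, atrial natriuretic peptide, was at 42004, 2100 and 2214 FPKM in HF and at 170.1, 477, 343, 199 and 746 FPKM in recovery. HF library 1 was the outlying value, and the other HF libraries were still above each recovery library. Nppa fell by 4.12 on the log2 scale (SE 0.76, adjusted p = 0.000979) and fell by 2.69 without HF library 1 (adjusted p = 0.00695). Myh7, beta myosin heavy chain, was at 237, 229 and 141 FPKM in HF and at 47.2, 21.2, 40.7, 40.3 and 48.7 FPKM in recovery. The groups were apart by a wide margin, and Myh7 fell by 2.36 on the log2 scale (SE 0.51, adjusted p = 0.00302) and fell by 2.23 without HF library 1 (adjusted p = 0.0218).

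Acta1, skeletal alpha actin, was at 578, 1317 and 1236 FPKM in HF and at 306, 682, 234, 239.9 and 527 FPKM in recovery, and recovery library 2 lay above HF library 1. Acta1 fell by 1.44 on the log2 scale (SE 0.43, adjusted p = 0.0195) and fell by 1.82 without HF library 1 (adjusted p = 0.0177). Ctgf, a matricellular growth factor that hypertrophy and TGF beta induce, was at 143, 87.4 and 82.7 FPKM in HF and at 21.3, 31.6, 15.9, 16.3 and 24.3 FPKM in recovery. Ctgf fell by 2.23 on the log2 scale (SE 0.21, adjusted p = 7.44e-06) and fell by 1.98 without HF library 1 (adjusted p = 6.88e-05). Other members that fell, named after their values were seen, were Xirp2 (log2 fold change -1.41, adjusted p = 7.89e-05, and -1.51, adjusted p = 0.000342, without HF library 1), which binds actin at the intercalated disc, Ankrd1 (log2 fold change -1.13, adjusted p = 0.00363, and -1.18, adjusted p = 0.0148, without HF library 1), a titin-bound stress protein, Rcan1 (log2 fold change -0.78, adjusted p = 0.0014, and -0.88, adjusted p = 0.00322, without HF library 1), a calcineurin target, and Mybpc2 (log2 fold change -0.89, adjusted p = 0.0127, and -0.94, adjusted p = 0.0371, without HF library 1), a myosin-binding protein of fast muscle. Also named after their values were seen are the 2 members called higher, Gata4 (log2 fold change 0.67, adjusted p = 0.00865, and 0.54, adjusted p = 0.0723, without HF library 1), a cardiac transcription factor, and Tuba8 (log2 fold change 0.61, adjusted p = 0.0416, and 0.24, adjusted p = 0.405, without HF library 1), a tubulin.

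**Figure D3:**
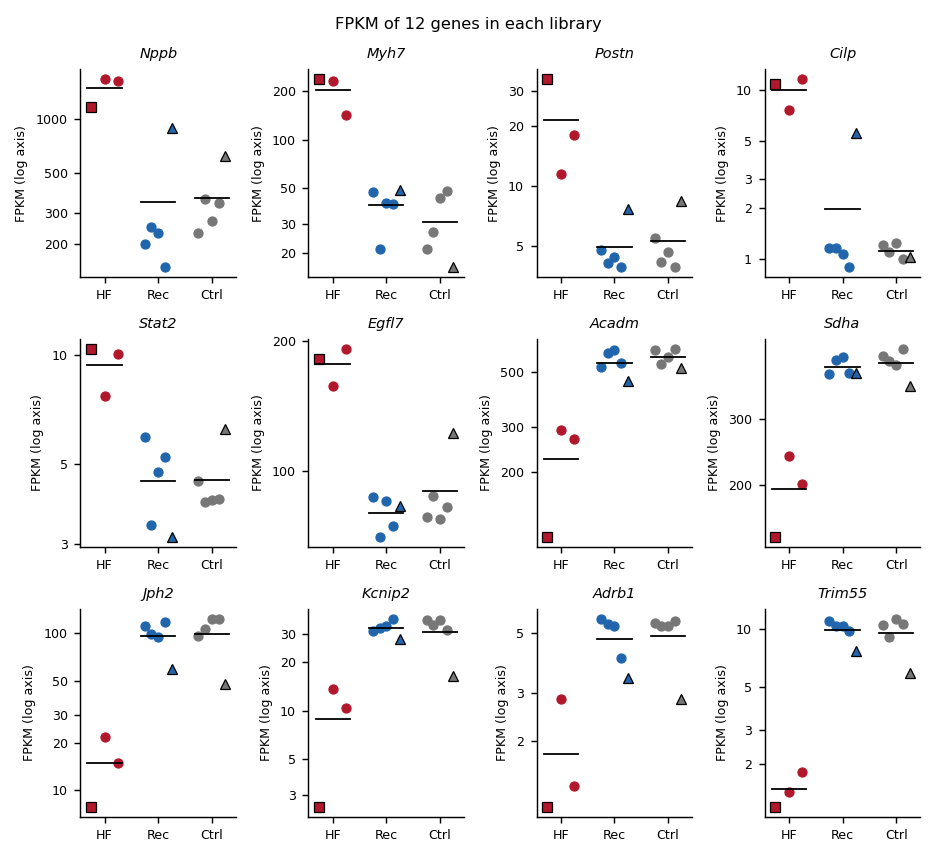
FPKM (log axes) of 12 genes by library, for HF (week 5), recovery (Rec, week 19) and control (Ctrl, week 19), with lines at the means. The black-edged square is HF library 1 and black-edged triangles are recovery and control library 5. The HF and recovery points do not overlap in any of the 12 genes.

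Matrix genes fell in part. The mesothelial sum and the atrial sum, which includes Nppa, were also higher in HF, as given above. Their part in the fall of matrix genes was not tested. Of 22 matricellular and elastic fiber genes tested, 14 were called lower and 1 higher (12.0% and 12.3% over all genes), with a median of -0.85. Without HF library 1, 8 were lower and 1 higher (5.27% and 6.90% over all genes). Of 14 collagens, 6 were lower (12.0% over all genes), and 3 without HF library 1 (5.27%). Postn, periostin of activated fibroblasts, was at 34.4, 11.6 and 18.1 FPKM in HF and at 4.78, 4.12, 4.43, 3.93 and 7.66 FPKM in recovery. All HF libraries were above all recovery libraries, and Postn fell by 1.89 on the log2 scale (SE 0.33, adjusted p = 0.00058) and fell by 1.48 without HF library 1 (adjusted p = 0.00792). Cilp, a cartilage matrix protein that fibroblasts make in overload, was at 10.8, 7.66 and 11.7 FPKM in HF and at 1.16, 1.17, 1.07, 0.897 and 5.58 FPKM in recovery. Recovery library 5 was the highest of its group and below each HF library, and Cilp fell by 2.34 on the log2 scale (SE 0.51, adjusted p = 0.00324) and fell by 2.27 without HF library 1 (adjusted p = 0.0205). Thbs4, a thrombospondin, was at 14.4, 7.50 and 8.16 and at 1.68, 2.10, 1.84, 1.86 and 3.92 FPKM. Thbs4 fell by 1.91 on the log2 scale (SE 0.34, adjusted p = 0.000648) and fell by 1.63 without HF library 1 (adjusted p = 0.00869). Fmod, fibromodulin, which steers fibril assembly, was at 12.9, 4.16 and 3.75 and at 0.127, 0.122, 0.278, 0.310 and 1.58 FPKM. Fmod fell by 2.88 on the log2 scale (SE 0.57, adjusted p = 0.00161) and fell by 2.35 without HF library 1 (adjusted p = 0.0205).

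Sparc, which binds collagen, was at 347, 284 and 353 FPKM in HF and at 171, 208, 191, 159 and 246 FPKM in recovery. Sparc fell by 0.76 on the log2 scale (SE 0.14, adjusted p = 0.000842) and fell by 0.72 without HF library 1 (adjusted p = 0.00709). Comp (log2 fold change -1.98, adjusted p = 0.00687, and -1.52, adjusted p = 0.0694, without HF library 1) and Mfap4 (log2 fold change -1.76, adjusted p = 0.0109, and -1.51, adjusted p = 0.0751, without HF library 1) did not keep the call. Among collagens, Col3a1 of the fibrils was at 53.0, 30.96 and 47.5 FPKM in HF and at 23.8, 28.7, 26.2, 19.8 and 32.4 FPKM in recovery, where library 5 overlapped HF library 2. Col3a1 fell by 0.71 on the log2 scale (SE 0.18, adjusted p = 0.00854), while the value without HF library 1 was -0.56 (adjusted p = 0.0751). Col16a1 (log2 fold change -1.26, adjusted p = 0.000768, and -0.99, adjusted p = 0.0109, without HF library 1), Col8a1 (log2 fold change -0.86, adjusted p = 0.00362, and -0.77, adjusted p = 0.0291, without HF library 1) and Col18a1 (log2 fold change -0.81, adjusted p = 0.00369, and -0.55, adjusted p = 0.0445, without HF library 1), minor collagens of fibril surfaces and basement membranes, were lower both ways. The proteoglycan Dcn, decorin, gave -0.50 (adjusted p = 0.14).

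The inhibitors of metalloproteinases moved apart. Timp1 was at 57.0, 25.1 and 16.2 FPKM in HF and at 5.38, 4.86, 4.54, 4.48 and 22.8 FPKM in recovery, with library 5 within the HF range. Timp1 fell by 2.03 on the log2 scale (SE 0.54, adjusted p = 0.0106), while the value without HF library 1 was -1.54 (adjusted p = 0.096). Timp3, bound to matrix, was at 8.36, 5.83 and 8.40 and at 28.7, 29.1, 17.6, 25.4 and 11.2 FPKM. Timp3 rose by 1.45 on the log2 scale (SE 0.28, adjusted p = 0.00131) and by 1.52 without HF library 1 (adjusted p = 0.00583). Timp4, the cardiac form, was at 44.6, 40.2 and 55.8 and at 72.3, 86.5, 94.9, 77.8 and 101 FPKM and rose by 0.88 on the log2 scale (SE 0.23, adjusted p = 0.00938) and by 0.85 without HF library 1 (adjusted p = 0.0446). Of 15 collagen processing enzymes, 1 was called higher (12.3% over all genes), P4ha2 (log2 fold change 0.45, adjusted p = 0.0203, and 0.30, adjusted p = 0.167, without HF library 1). Of 19 genes of the TGF beta pathway, 5 were lower with all libraries by limma's adjusted p (12.0% over all genes). Without HF library 1, 0 were lower by that p (5.27% over all genes), where 4 passed an unadjusted p in either direction. Tgfb2, a ligand, was at 2.51, 2.28 and 2.03 and at 1.33, 0.948, 1.05, 1.16 and 1.44 FPKM and fell by 0.72 on the log2 scale (SE 0.19, adjusted p = 0.00881), while the value without HF library 1 was -0.66 (adjusted p = 0.0512).

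The activated fibroblast markers followed the matrix genes. Their sum over 9 genes was 179.9, 193 and 153 FPKM in HF and 63.7 to 89.5 in recovery, and 6 of 7 tested were lower (12.0% over all genes). They share Postn, Cilp, Comp and Thbs4 with the matrix lists. The 12 general fibroblast markers summed to 2664, 1335 and 1986 FPKM in HF and to 1164 to 1920 FPKM in recovery, which overlap. Of these 12, 4 were lower (12.0% over all genes), with 1 higher and 0 lower without HF library 1 (6.90% and 5.27%).

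Of 26 interferon-stimulated and MHC class I genes tested, 12 were called lower (12.0% of all genes) and 0 higher, and 11 did not overlap (12.7% of all genes lower). The fold change was negative for all 26 in both fits, with a median of -0.65. Without HF library 1 the median was -0.69 and 6 were called lower (5.27% of all genes). The interferon-stimulated response element was searched as GAAA, any 2 bases and GAAA, on both strands. The 3 promoters shown are those of members that held it and were called lower. They lie at chr10:128270251-128270310 (plus strand) for Stat2, at chr19:34583382-34583441 (plus strand) for Ifit3 and at chr19:34640760-34640819 (plus strand) for Ifit1, all in GRCm38.p6 from RefSeq, with matches in capitals.
Stat2: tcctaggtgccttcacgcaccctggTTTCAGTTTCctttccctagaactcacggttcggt
Ifit3: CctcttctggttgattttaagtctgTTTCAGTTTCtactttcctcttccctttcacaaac
Ifit1: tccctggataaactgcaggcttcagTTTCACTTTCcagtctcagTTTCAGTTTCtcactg

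The letters were in 8 of the 21 list members with a promoter (38.1%) and in 3.49% of all promoters. Of those 8, 3 were called lower and 0 higher, beside 12 of the 26 tested members of the list called lower. The capital at the first base for Ifit3 is the end of a second match.

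Stat2, the signal transducer of type I interferon, was at 10.4, 7.69 and 10.1 FPKM in HF and at 5.92, 3.39, 4.75, 5.22 and 3.12 FPKM in recovery. All HF libraries were above all recovery libraries, and here recovery library 5 was the lowest. Stat2 fell by 1.01 on the log2 scale (SE 0.18, adjusted p = 0.000768) and fell by 0.94 without HF library 1 (adjusted p = 0.00808). Irf7, an interferon regulatory factor, was at 23.2, 13.2 and 25.3 and at 8.40, 10.2, 8.59, 10.2 and 12.3 FPKM. Irf7 fell by 0.98 on the log2 scale (SE 0.19, adjusted p = 0.00168) and fell by 0.86 without HF library 1 (adjusted p = 0.0177). Ifit3, which binds viral RNA complexes, was at 8.32, 6.47 and 12.6 and at 3.42, 3.27, 4.91, 4.07 and 5.23 FPKM. Ifit3 fell by 1.01 on the log2 scale (SE 0.25, adjusted p = 0.00694) and fell by 1.05 without HF library 1 (adjusted p = 0.0263). Oasl2 was at 9.02, 4.33 and 5.72 and at 2.65, 2.99, 2.51, 2.54 and 3.24 FPKM and fell by 1.01 on the log2 scale (SE 0.20, adjusted p = 0.00136) and fell by 0.74 without HF library 1 (adjusted p = 0.0178). Ifit1 fell by 0.88 on the log2 scale (SE 0.26, adjusted p = 0.0212), while the value without HF library 1 was -0.74 (adjusted p = 0.118). B2m, the light chain of MHC class I, gave -0.34 (adjusted p = 0.424), with HF values of 549.7, 415 and 908 FPKM and recovery values of 382, 463, 431, 422 and 686 FPKM that overlap. Of 7 MHC class II genes 0 were called by limma's adjusted p and 1 by its unadjusted p, and Cd74, their invariant chain, gave -0.45 (adjusted p = 0.212).

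Complement genes were called lower in 5 of 18 cases and higher in 1 (12.0% and 12.3% over all genes), and in 3 and 1 without HF library 1. C4a was at 52.1, 20.1 and 12.7 FPKM in HF and at 2.07, 2.61, 3.58, 3.70 and 12.8 FPKM in recovery, where library 5 matched HF library 3. C4a fell by 2.44 on the log2 scale (SE 0.45, adjusted p = 0.000862) and fell by 1.88 without HF library 1 (adjusted p = 0.0123). Cfb of the alternative pathway was at 3.82, 1.72 and 1.47 and at 0.721, 0.432, 0.678, 0.324 and 0.945 FPKM and fell by 1.28 on the log2 scale (SE 0.25, adjusted p = 0.00147) and fell by 0.93 without HF library 1 (adjusted p = 0.0192). Cfd, which acts on Cfb, is also the adipocyte marker given above. Of 17 macrophage markers 2 were lower, a share near the 12.0% over all genes, and 1 without HF library 1. C1qa, a macrophage product, was at 214, 117 and 165 and at 99.96, 183, 119, 141 and 215 FPKM (log2 fold change -0.14, adjusted p = 0.706).

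Of 20 chemokine and cytokine genes 3 were higher and 3 lower, shares near those over all genes, and 2 and 2 without HF library 1. Ccl11, eotaxin, was at 0.489, 1.62 and 1.78 FPKM in HF and at 5.72, 9.75, 5.28, 5.83 and 6.24 FPKM in recovery. The lowest recovery library had more than the highest HF library, and Ccl11 rose by 2.04 on the log2 scale (SE 0.30, adjusted p = 0.000162) and by 1.65 without HF library 1 (adjusted p = 0.00214). Cxcl14 was at 11.8, 15.8 and 27.8 and at 37.8, 55.2, 41.5, 45.2 and 66.9 FPKM and rose by 1.45 on the log2 scale (SE 0.25, adjusted p = 0.000624) and by 1.18 without HF library 1 (adjusted p = 0.00851). Cxcl9, which interferon gamma induces, was at 1.13, 2.61 and 6.51 and at 1.07, 1.15, 1.50, 0.994 and 1.45 FPKM and fell by 0.93 on the log2 scale (SE 0.31, adjusted p = 0.0344) and fell by 1.44 without HF library 1 (adjusted p = 0.00295).

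Genes of fatty acid oxidation rose broadly. Of 29 tested, 20 were called higher (12.3% of all genes) and 0 lower, and 16 were higher without HF library 1 (6.90%). The groups did not overlap for 16 (14.1%). The median was 0.79, and 0.47 without HF library 1. Acadm, medium-chain acyl-CoA dehydrogenase, was at 109, 294 and 269 FPKM in HF and at 523, 592, 609.5, 540.2 and 460.1 FPKM in recovery. HF library 1 was the lowest, and all recovery libraries were above the other HF libraries too. Acadm rose by 1.40 on the log2 scale (SE 0.21, adjusted p = 0.000206) and by 0.95 without HF library 1 (adjusted p = 0.000141). Etfdh, which passes electrons from those dehydrogenases to coenzyme Q, was at 39.9, 94.1 and 85.8 and at 181, 202, 202, 183 and 158 FPKM. Etfdh rose by 1.42 on the log2 scale (SE 0.23, adjusted p = 0.000388) and by 1.03 without HF library 1 (adjusted p = 0.00318). Hadhb of the trifunctional protein was at 195, 516 and 475 and at 821, 1030, 1015, 874 and 979.5 FPKM. Hadhb rose by 1.37 on the log2 scale (SE 0.21, adjusted p = 0.000202) and by 0.92 without HF library 1 (adjusted p = 0.000114). Hadh, the short-chain hydroxyacyl-CoA dehydrogenase, was at 95.5, 198 and 179.9 and at 294, 428, 399.5, 348 and 396 FPKM and rose by 1.30 on the log2 scale (SE 0.22, adjusted p = 0.00049) and by 0.97 without HF library 1 (adjusted p = 0.0053).

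Ppara, the nuclear receptor that activates this pathway, was at 1.64, 2.60 and 2.23 FPKM in HF and at 7.57, 5.92, 6.28, 6.28 and 4.92 FPKM in recovery. Ppara rose by 1.34 on the log2 scale (SE 0.19, adjusted p = 0.000162) and by 1.19 without HF library 1 (adjusted p = 0.00216). Fabp3, the heart fatty acid binding protein and the most abundant member, was at 3357, 10776 and 9493 FPKM in HF and at 8718, 12690, 12123, 10714 and 14926 FPKM in recovery, with overlap. Fabp3 differed by 0.73 on the log2 scale (SE 0.30, adjusted p = 0.0807), and by 0.20 without HF library 1 (adjusted p = 0.634). The letters AAGGTCA, the core to which estrogen-related receptors bind, were in 1 of 24 promoters of the list, that of Acadm, in 1 of 20 of the tricarboxylic acid cycle, and in 4.66% of all promoters. The longer form TCAAGGTCA was in 0 of 24 promoters of the fatty acid list and in 0.407% of all.

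Of 23 genes of the tricarboxylic acid cycle tested, 18 were called higher (12.3% over all genes) and 0 lower. All 23 fold changes were positive and 17 did not overlap (14.1% over all genes). Without HF library 1, 13 were higher (6.90%), and 11 without recovery library 5 as well (8.01%). Sdha, the flavoprotein of succinate dehydrogenase, was at 145, 239 and 202 FPKM in HF and at 396, 432, 440, 397 and 397 FPKM in recovery. The recovery libraries lay close together, above every HF library. Sdha rose by 1.11 on the log2 scale (SE 0.12, adjusted p = 2.45e-05) and by 0.91 without HF library 1 (adjusted p = 0.000107). Its partner Sdhd was at 138, 219.8 and 204 and at 297, 391, 359.8, 323 and 377 FPKM and rose by 0.92 on the log2 scale (SE 0.14, adjusted p = 0.000191) and by 0.71 without HF library 1 (adjusted p = 0.00178), while Sdhb, a subunit of the same enzyme, gave 0.15 (adjusted p = 0.597). Idh3b was at 113, 250.1 and 204 and at 326, 428, 382, 336 and 377 FPKM and rose by 1.04 on the log2 scale (SE 0.17, adjusted p = 0.000484) and by 0.70 without HF library 1 (adjusted p = 0.00211). The most abundant members, Idh2 (log2 fold change 0.30, adjusted p = 0.316) and Mdh2 (log2 fold change 0.27, adjusted p = 0.212), were not called.

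Respiratory chain genes gave few calls. Of 41 complex I genes, 3 were called higher and 0 lower (12.3% and 12.0% over all genes), with a median of 0.029, and of -0.14 without HF library 1. Without HF library 1 and recovery library 5, 1 complex I gene was higher and 3 were lower (8.01% and 7.09% over all genes). Of 37 genes of complexes III to V, 6 were higher, a share near the 12.3% over all genes, and 3 without HF library 1, with medians of 0.058 and -0.18, so that both medians turned negative. Ndufs1, the largest complex I subunit, was at 63.7, 93.7 and 88.8 FPKM in HF and at 146, 150.5, 160.1, 145 and 131 FPKM in recovery. Ndufs1 rose by 0.85 on the log2 scale (SE 0.12, adjusted p = 0.00012) and by 0.68 without HF library 1 (adjusted p = 0.000975). Ndufa3, a small subunit, was at 5247, 8636 and 8046 and at 5386, 9922, 6858, 6571 and 10346 FPKM, which overlap, and gave 0.084 (adjusted p = 0.895). Uqcrc2 (log2 fold change 0.69, adjusted p = 0.00252, and 0.45, adjusted p = 0.0237, without HF library 1) and Atp5f1 (log2 fold change 0.66, adjusted p = 0.00176, and 0.49, adjusted p = 0.0194, without HF library 1) were higher both ways. The genes that the mitochondrial genome encodes are listed at 0 in all 13 libraries and were not tested.

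Of 12 coenzyme Q genes, 8 were higher (12.3% over all genes), and 6 without HF library 1 (6.90%). Pdss2, which makes the isoprenoid tail, was at 1.67, 3.02 and 2.69 FPKM in HF and at 6.04, 8.80, 8.05, 6.94 and 5.61 FPKM in recovery. Pdss2 rose by 1.37 on the log2 scale (SE 0.19, adjusted p = 0.000125) and by 1.16 without HF library 1 (adjusted p = 0.00167). Of 25 genes of carriers, dynamics and biogenesis, 16 were higher (12.3% over all genes), and 9 without HF library 1 (6.90%). Ccdc109a, the older symbol of the mitochondrial calcium uniporter, was at 1.23, 0.868 and 0.649 and at 4.33, 3.70, 3.45, 3.35 and 2.63 FPKM. Ccdc109a rose by 1.50 on the log2 scale (SE 0.30, adjusted p = 0.00153) and by 1.66 without HF library 1 (adjusted p = 0.00478). Ppargc1a, the coactivator PGC-1 alpha, was at 4.32, 4.83 and 2.61 and at 12.4, 5.00, 8.78, 7.59 and 8.23 FPKM and rose by 0.99 on the log2 scale (SE 0.32, adjusted p = 0.0282), while the value without HF library 1 was 1.07 (adjusted p = 0.0668). Of 39 mitochondrial ribosomal proteins 9 were higher (12.3% over all genes), and 6 without HF library 1 (6.90%), such as Mrps30 (log2 fold change 0.88, adjusted p = 0.00058, and 0.68, adjusted p = 0.00701, without HF library 1). Of 23 genes of branched-chain amino acid and ketone breakdown, 10 were higher (12.3% over all genes), and 6 without HF library 1 (6.90%), such as Auh (log2 fold change 1.06, adjusted p = 0.000376, and 0.75, adjusted p = 0.00215, without HF library 1).

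Glycolysis rose in part, with 10 of 21 genes higher and 0 lower (12.3% and 12.0% over all genes). Without HF library 1, 6 were higher and 1 lower (6.90% and 5.27% over all genes). Hk2, hexokinase, was at 7.91, 21.3 and 19.1 FPKM in HF and at 35.6, 32.3, 37.4, 31.5 and 29.6 FPKM in recovery. Hk2 rose by 1.14 on the log2 scale (SE 0.23, adjusted p = 0.00188) and by 0.70 without HF library 1 (adjusted p = 0.015). Pfkm, muscle phosphofructokinase, was at 139, 215 and 186 and at 313, 356, 353, 327 and 337 FPKM. Pfkm rose by 0.93 on the log2 scale (SE 0.13, adjusted p = 0.000146) and by 0.75 without HF library 1 (adjusted p = 0.00152). Eno3, muscle enolase, was at 591, 1289 and 1215 and at 1800, 3042, 1803, 2165 and 1867 FPKM and rose by 1.10 on the log2 scale (SE 0.24, adjusted p = 0.00289) and by 0.74 without HF library 1 (adjusted p = 0.0322). The ventricular marker sum, given above, was low in HF library 1 alone, and its part in the fold changes with that library was not tested.

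**Figure D4:**
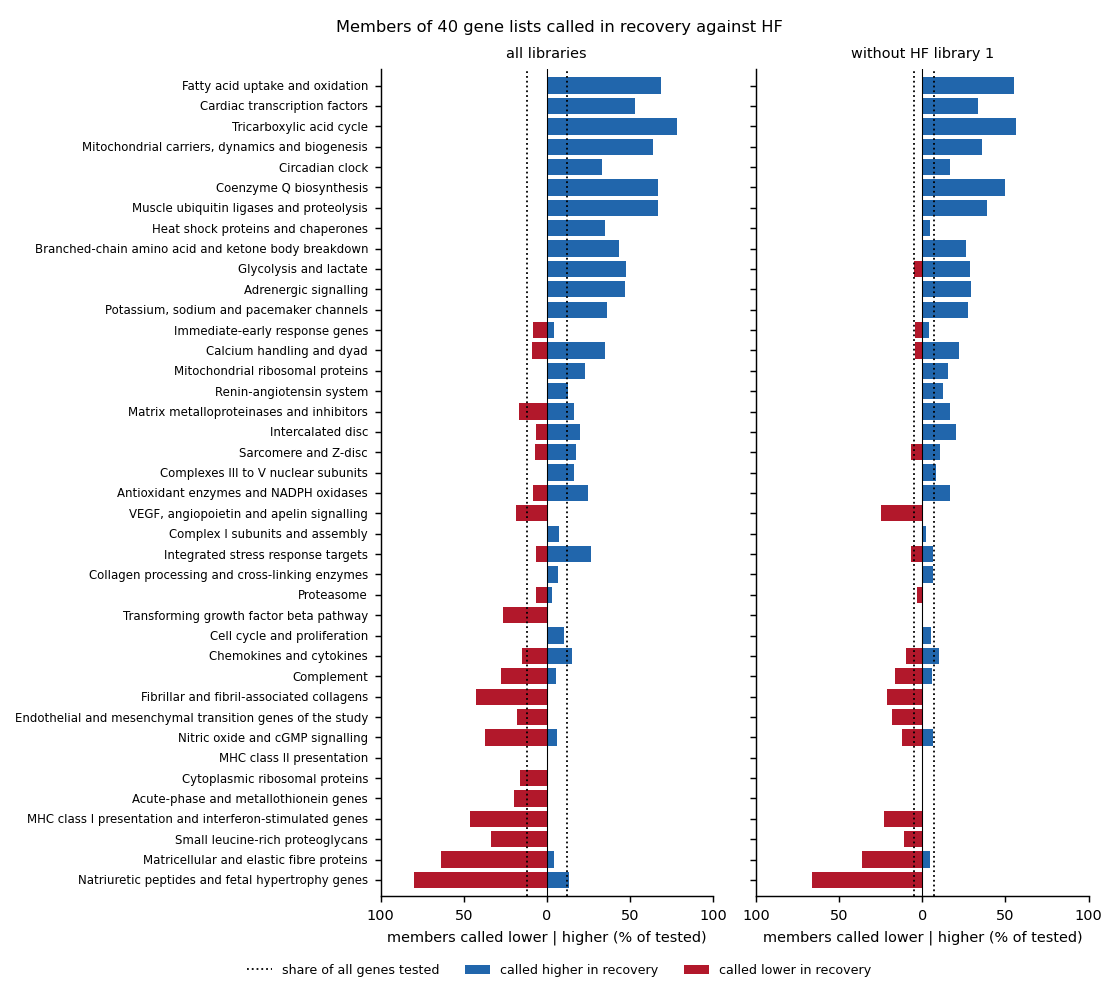
Share of the tested members of 40 gene lists called higher (blue, to the right) or lower (red, to the left) in recovery, with all libraries and without HF library 1, ordered by the list's median fold change. Dotted lines mark the shares over all genes tested, 12.3% and 12.0%, and 6.90% and 5.27% without HF library 1.

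Without HF library 1 and recovery library 5, the calls were counted once more. Of the genes named as groups above, 11 of 15 fetal genes, 12 of 22 matricellular genes and 11 of 26 interferon and MHC class I genes were then lower (7.09% over all genes). On the rising side, 15 of 29 fatty acid genes, 11 of 23 genes of the tricarboxylic acid cycle and 11 of 25 mitochondrial carrier and biogenesis genes were higher (8.01% over all genes). Glycolysis then had 5 of 21 genes higher and 2 lower, mitochondrial ribosomal proteins 5 of 39 higher and 1 lower, branched-chain and ketone genes 5 of 23 higher, and heat shock and chaperone genes 2 of 23 higher.

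Of 23 calcium handling and dyad genes tested, 8 were higher and 2 lower (12.3% and 12.0% over all genes). Without HF library 1, 5 were higher and 1 lower (6.90% and 5.27% over all genes). Jph1, the junctophilin of skeletal muscle, was at 0.115, 0.172 and 0.236 FPKM in HF and at 1.56, 2.03, 1.52, 2.16 and 0.417 FPKM in recovery, with library 5 the lowest of its group. Jph1 rose by 1.51 on the log2 scale (SE 0.31, adjusted p = 0.00197) and by 1.45 without HF library 1 (adjusted p = 0.015). Atp2a2, the pump SERCA2 that refills the reticulum, was at 1097, 1274 and 1153 and at 1757, 1739, 1926, 1791 and 1771 FPKM. Atp2a2 rose by 0.61 on the log2 scale (SE 0.16, adjusted p = 0.00897) and by 0.57 without HF library 1 (adjusted p = 0.0462). Pln, phospholamban, its inhibitor, was at 395, 1243 and 1079 and at 1285, 1364, 1536, 1363 and 1560 FPKM. Pln rose by 0.81 on the log2 scale (SE 0.25, adjusted p = 0.0233), while the value without HF library 1 was 0.29 (adjusted p = 0.228). The member called lower both ways was Sln, an atrial marker.

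Of 22 ion channel genes, 8 were higher and 0 lower (12.3% and 12.0% over all genes), and 6 were higher without HF library 1 (6.90%). Kcnip2, a subunit of the transient outward potassium current, was at 2.50, 13.6 and 10.4 FPKM in HF and at 31.3, 32.5, 33.7, 37.2 and 27.7 FPKM in recovery. Kcnip2 rose by 2.09 on the log2 scale (SE 0.34, adjusted p = 0.000398) and by 1.41 without HF library 1 (adjusted p = 0.00158). Scn4b, a sodium channel beta subunit, was at 0.346, 2.10 and 1.84 and at 11.2, 11.03, 13.8, 10.3 and 7.88 FPKM. Scn4b rose by 2.70 on the log2 scale (SE 0.31, adjusted p = 2.83e-05) and by 2.18 without HF library 1 (adjusted p = 0.000141). Kcnj11, the pore of the ATP-sensitive potassium channel, was at 17.0, 30.4 and 20.0 and at 41.5, 37.9, 45.7, 38.8 and 37.3 FPKM and rose by 0.87 on the log2 scale (SE 0.19, adjusted p = 0.00353) and by 0.69 without HF library 1 (adjusted p = 0.0377). At the intercalated disc 3 of 15 genes were higher and 1 lower (12.3% and 12.0% over all genes), and 3 and 0 without HF library 1. Gja3, a connexin, was at 0.953, 1.37 and 0.709 and at 4.73, 5.19, 5.41, 5.00 and 2.05 FPKM and rose by 1.68 on the log2 scale (SE 0.33, adjusted p = 0.00153) and by 1.66 without HF library 1 (adjusted p = 0.0104). Cdh2, N-cadherin, was at 14.3, 24.6 and 19.9 and at 40.8, 30.8, 37.1, 35.1 and 28.0 FPKM and rose by 0.81 on the log2 scale (SE 0.17, adjusted p = 0.00201) and by 0.61 without HF library 1 (adjusted p = 0.0249).

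Sarcomere genes were called higher in 5 of 28 cases and lower in 2 (12.3% and 12.0% over all genes), and in 3 and 2 without HF library 1, with a median of 0.064, and of -0.11 without HF library 1. The 2 lower were Myh7 and Acta1. Actc1, cardiac actin, was at 2788, 5762 and 5251 FPKM in HF and at 8146, 10530, 8473, 8306 and 10720 FPKM in recovery. Actc1 rose by 1.06 on the log2 scale (SE 0.19, adjusted p = 0.000862) and by 0.74 without HF library 1 (adjusted p = 0.00709), but it is listed at 0 in all 5 control libraries.

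Muscle ubiquitin ligases rose, with 12 of 18 higher (12.3% over all genes) and 0 lower, and with 7 higher without HF library 1 (6.90%). Trim55, a ligase at the M-line, was at 1.19, 1.43 and 1.82 FPKM in HF and at 11.02, 10.3, 10.4, 9.74 and 7.71 FPKM in recovery. Trim55 rose by 2.39 on the log2 scale (SE 0.30, adjusted p = 4.75e-05) and by 2.28 without HF library 1 (adjusted p = 0.00065). Fbxo40, which targets the insulin receptor substrate in muscle, was at 0.422, 1.56 and 2.54 and at 12.8, 10.5, 12.9, 14.1 and 5.42 FPKM. Fbxo40 rose by 2.63 on the log2 scale (SE 0.39, adjusted p = 0.000183) and by 2.15 without HF library 1 (adjusted p = 0.00233). Asb18 was at 0.352, 0.555 and 0.678 and at 5.39, 5.37, 3.67, 5.05 and 1.97 FPKM and rose by 2.16 on the log2 scale (SE 0.26, adjusted p = 4.18e-05) and by 2.03 without HF library 1 (adjusted p = 0.000577). Klhl38 was at 2.30, 3.26 and 2.23 and at 9.20, 8.55, 9.85, 9.50 and 4.73 FPKM and rose by 1.49 on the log2 scale (SE 0.24, adjusted p = 0.000304) and by 1.43 without HF library 1 (adjusted p = 0.0032). In the proteasome, 1 of 31 genes was higher and 2 lower, shares below the 12.3% and 12.0% over all genes, and 0 and 1 without HF library 1.

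Cardiac transcription factors were higher in 8 of 15 cases (12.3% over all genes) and lower in 0, and higher in 5 without HF library 1 (6.90%). Hand2 was at 33.9, 24.3 and 22.6 FPKM in HF and at 91.4, 88.4, 58.9, 75.4 and 59.0 FPKM in recovery. Hand2 rose by 1.45 on the log2 scale (SE 0.34, adjusted p = 0.00531) and by 1.62 without HF library 1 (adjusted p = 0.0133). Hopx was at 113, 174 and 155 and at 250.5, 309, 289, 262 and 301 FPKM and rose by 0.95 on the log2 scale (SE 0.14, adjusted p = 0.000158) and by 0.77 without HF library 1 (adjusted p = 0.00178). Nkx2-5 was at 49.4, 69.4 and 62.6 and at 90.9, 122, 96.6, 96.0 and 114 FPKM and rose by 0.78 on the log2 scale (SE 0.17, adjusted p = 0.003) and by 0.64 without HF library 1 (adjusted p = 0.0308). Tbx20 was at 1.46, 0.745 and 1.35 and at 4.03, 2.89, 2.46, 2.98 and 1.84 FPKM and rose by 0.98 on the log2 scale (SE 0.27, adjusted p = 0.0141) and by 1.10 without HF library 1 (adjusted p = 0.0297). Tbx5, also an atrial marker, was at 20.9, 2.75 and 1.72 FPKM in HF, high in library 1 alone, and at 3.96, 4.00, 3.62, 3.85 and 3.02 FPKM in recovery. Tbx5 differed by -0.36 on the log2 scale (SE 0.45, adjusted p = 0.597), and by 0.64 without HF library 1 (adjusted p = 0.0887), a change of sign between the fits with no call in either.

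Of 17 adrenergic signaling genes, 8 were higher (12.3% over all genes) and 0 lower, and 5 were higher without HF library 1 (6.90%). Adrb1, the beta 1 receptor, was at 1.14, 2.86 and 1.36 FPKM in HF and at 5.62, 5.38, 5.29, 4.01 and 3.39 FPKM in recovery. All recovery libraries were above all HF libraries, and Adrb1 rose by 1.25 on the log2 scale (SE 0.25, adjusted p = 0.00151) and by 1.04 without HF library 1 (adjusted p = 0.019). Adra1b, an alpha 1 receptor, was at 5.21, 9.04 and 4.52 and at 12.4, 14.0, 14.6, 15.2 and 11.9 FPKM and rose by 1.11 on the log2 scale (SE 0.27, adjusted p = 0.00546) and by 1.02 without HF library 1 (adjusted p = 0.038). Prkar2a, a regulatory subunit of protein kinase A, was at 1.06, 1.07 and 1.60 and at 7.28, 6.87, 5.77, 7.34 and 3.35 FPKM and rose by 1.89 on the log2 scale (SE 0.25, adjusted p = 8.9e-05) and by 1.82 without HF library 1 (adjusted p = 0.00114). Agtr1a, the main receptor of angiotensin II, was at 3.66, 7.87 and 5.96 and at 13.7, 11.4, 14.5, 11.1 and 9.75 FPKM. Agtr1a rose by 1.03 on the log2 scale (SE 0.23, adjusted p = 0.00366) and by 0.76 without HF library 1 (adjusted p = 0.0438). It was the only member called of 8 renin-angiotensin genes tested, a share near the 12.3% over all genes.

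Nitric oxide and cGMP genes were lower in 6 of 16 cases and higher in 1 (12.0% and 12.3% over all genes). Without HF library 1 they were lower in 2 and higher in 1 (5.27% and 6.90% over all genes). Nos3, the endothelial synthase that L-NAME blocks, was at 35.4, 21.0 and 20.8 FPKM in HF and at 22.6, 17.4, 15.3, 16.1 and 10.6 FPKM in recovery, with HF library 1 the highest. Nos3 fell by 0.63 on the log2 scale (SE 0.21, adjusted p = 0.0353), while the value without HF library 1 was -0.38 (adjusted p = 0.273). Pde9a, which breaks down cGMP, was at 7.01, 2.76 and 2.55 and at 1.15, 1.40, 1.47, 1.72 and 1.18 FPKM and fell by 1.17 on the log2 scale (SE 0.24, adjusted p = 0.00213) and fell by 0.75 without HF library 1 (adjusted p = 0.0219). Npr3, the natriuretic peptide clearance receptor, was at 21.7, 3.39 and 3.45 and at 1.74, 2.42, 2.53, 1.82 and 1.56 FPKM and fell by 1.49 on the log2 scale (SE 0.38, adjusted p = 0.00875), while the value without HF library 1 was -0.66 (adjusted p = 0.0519). Pde3a, a phosphodiesterase that cGMP inhibits, was at 0.316, 0.393 and 0.271 and at 3.65, 1.94, 2.14, 2.91 and 0.878 FPKM and rose by 1.67 on the log2 scale (SE 0.30, adjusted p = 0.000772) and by 1.66 without HF library 1 (adjusted p = 0.00571).

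Endothelial markers were lower in 6 of 12 cases (12.0% over all genes), and in 5 without HF library 1 (5.27%). The mesothelial marker sum given above was also higher in all HF libraries. The atrial sum was too, but it includes Nppa, and the atrial median of HF library 3 lay within the recovery range. The part of these sums in the endothelial values was not tested. The endothelial sum was 974, 619.7 and 804 FPKM in HF and 448 to 495 in recovery, with no overlap. Egfl7, a secreted endothelial factor, was at 182, 158 and 192 FPKM in HF and at 87.0, 70.2, 85.5, 74.5 and 82.8 FPKM in recovery. Each HF library had more than any recovery library, and Egfl7 fell by 1.14 on the log2 scale (SE 0.13, adjusted p = 2.85e-05) and fell by 1.12 without HF library 1 (adjusted p = 0.00028). Vwf, von Willebrand factor, was at 157, 40.2 and 47.6 and at 14.7, 25.4, 14.5, 15.4 and 24.4 FPKM and fell by 1.85 on the log2 scale (SE 0.31, adjusted p = 0.000504) and fell by 1.24 without HF library 1 (adjusted p = 0.00231). Emcn, endomucin, was at 80.3, 45.8 and 64.0 and at 24.9, 28.8, 25.8, 24.7 and 36.0 FPKM and fell by 1.14 on the log2 scale (SE 0.20, adjusted p = 0.00075) and fell by 0.95 without HF library 1 (adjusted p = 0.0101). Of 16 genes of VEGF, angiopoietin and apelin signaling, 3 were lower (12.0% over all genes) and 0 higher, and 4 and 0 without HF library 1, where the median turned from 0.029 to -0.12. Tek, the angiopoietin receptor, was at 17.3, 13.1 and 18.6 and at 10.9, 9.46, 8.73, 10.1 and 9.32 FPKM and fell by 0.71 on the log2 scale (SE 0.14, adjusted p = 0.00116) and fell by 0.66 without HF library 1 (adjusted p = 0.0106). Nrp1, a VEGF co-receptor, was at 22.0, 22.2 and 27.0 and at 15.2, 9.76, 12.2, 13.7 and 17.3 FPKM and fell by 0.80 on the log2 scale (SE 0.18, adjusted p = 0.00342) and fell by 0.85 without HF library 1 (adjusted p = 0.0125). Vegfc, the lymphatic growth factor, was at 3.34, 8.37 and 7.52 and at 2.65, 3.28, 2.71, 3.10 and 4.54 FPKM and fell by 0.81 on the log2 scale (SE 0.25, adjusted p = 0.0259) and fell by 1.19 without HF library 1 (adjusted p = 0.00391).

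Smooth muscle markers were lower in 5 of 9 cases (12.0% over all genes), and in 4 without HF library 1 (5.27%). Their sum of 956, 1447 and 1048 FPKM in HF nevertheless overlapped that of 962 to 1220 FPKM in recovery. Acta2, smooth muscle actin, which activated fibroblasts also make, was at 83.2, 142 and 82.0 FPKM in HF and at 51.8, 50.4, 46.9, 57.2 and 51.6 FPKM in recovery. Acta2 fell by 0.93 on the log2 scale (SE 0.22, adjusted p = 0.00547) and fell by 1.06 without HF library 1 (adjusted p = 0.0122). Tagln was at 61.1, 70.8 and 44.8 and at 34.4, 19.4, 28.6, 24.3 and 25.9 FPKM and fell by 1.14 on the log2 scale (SE 0.24, adjusted p = 0.00226) and fell by 1.10 without HF library 1 (adjusted p = 0.0161). Of 7 pericyte markers, 2 were higher and 2 lower (12.3% and 12.0% over all genes), and 0 and 2 without HF library 1 (6.90% and 5.27%). Fold changes were positive for 5 and negative for 2. Without HF library 1 they were positive for 3 and negative for 4, and the median turned from 0.22 to -0.29. Cspg4, the proteoglycan NG2, was at 4.87, 7.40 and 6.86 and at 4.64, 3.50, 3.52, 3.19 and 3.36 FPKM and fell by 0.72 on the log2 scale (SE 0.16, adjusted p = 0.00344) and fell by 0.89 without HF library 1 (adjusted p = 0.00283).

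Stress responses were mixed. Of 23 heat shock and chaperone genes, 8 were higher with all libraries (12.3% over all genes). Without HF library 1 only 1 was, a share below the 6.90% over all genes. It was Dnajb4 (log2 fold change 0.61, adjusted p = 0.00167, and 0.39, adjusted p = 0.0128, without HF library 1). Of 24 antioxidant genes, 6 were higher and 2 lower (12.3% and 12.0% over all genes), with a median of 0.046, and 4 and 0 without HF library 1. Prdx3, the mitochondrial peroxiredoxin, was at 78.1, 126 and 117 FPKM in HF and at 160.4, 229, 203, 189.9 and 249 FPKM in recovery. Prdx3 rose by 0.96 on the log2 scale (SE 0.14, adjusted p = 0.000162) and by 0.75 without HF library 1 (adjusted p = 0.00149). Gpx3, the extracellular glutathione peroxidase, was at 3291, 462 and 486 and at 214, 279.5, 233, 269 and 485 FPKM, and HF library 1 alone was far above. Gpx3 fell by 1.67 on the log2 scale (SE 0.49, adjusted p = 0.0192), while the value without HF library 1 was -0.74 (adjusted p = 0.214). Ddit4, an inhibitor of mTORC1, was at 33.1, 14.2 and 19.6 and at 47.6, 62.1, 54.8, 54.2 and 50.8 FPKM and rose by 1.33 on the log2 scale (SE 0.32, adjusted p = 0.00579) and by 1.66 without HF library 1 (adjusted p = 0.00507). Ddit3, the stress factor CHOP, was at 49.7, 65.7 and 69.9 and at 37.5, 28.8, 41.6, 38.9 and 43.9 FPKM and fell by 0.69 on the log2 scale (SE 0.20, adjusted p = 0.0185) and fell by 0.83 without HF library 1 (adjusted p = 0.0219).

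Atf3, an early stress gene, was at 32.7, 9.07 and 30.1 FPKM in HF and at 5.33, 10.2, 3.36, 4.03 and 7.30 FPKM in recovery, where library 2 lay above HF library 2. Atf3 fell by 1.81 on the log2 scale (SE 0.40, adjusted p = 0.00326) and fell by 1.49 without HF library 1 (adjusted p = 0.0351). Nr4a3, an orphan nuclear receptor, was at 0.127, 0 and 0.0665 and at 1.23, 1.91, 0.638, 0.937 and 0.540 FPKM and rose by 1.40 on the log2 scale (SE 0.30, adjusted p = 0.00264) and by 1.48 without HF library 1 (adjusted p = 0.0106). Of 24 immediate-early genes, 1 was higher and 2 lower, shares below the 12.3% and 12.0% over all genes, and 1 and 1 without HF library 1. Of 18 clock genes, 6 were higher (12.3% over all genes), and 3 without HF library 1 (6.90%). Of these, 1 was called both ways, the repressor Cry2 (log2 fold change 0.78, adjusted p = 0.000862, and 0.81, adjusted p = 0.00505, without HF library 1). The letters CACGTG, the E-box that clock activators bind, were in 4 of 14 clock promoters (28.6%) and in 7.24% of all promoters, and 1 of those 4 genes was called higher. The letters CCATATT followed at once by AGG, only 1 of the forms of the serum response element, were in 0 of 19 immediate-early promoters and in 0.0777% of all, and its other forms were not searched. Dbp, a clock output factor, was at 6.91, 34.3 and 16.9 and at 63.1, 90.7, 41.0, 35.3 and 42.4 FPKM and rose by 1.65 on the log2 scale (SE 0.40, adjusted p = 0.00623), while the value without HF library 1 was 1.07 (adjusted p = 0.0752). The hour at which hearts were taken is not given in the sources used here. Of 19 cell cycle genes 2 were higher, and 1 without HF library 1, shares below the 12.3% and 6.90% over all genes. Ccnd2, a cyclin, was at 4.37, 4.48 and 5.59 and at 10.4, 8.10, 8.03, 7.89 and 6.99 FPKM and rose by 0.72 on the log2 scale (SE 0.15, adjusted p = 0.00272) and by 0.66 without HF library 1 (adjusted p = 0.0217).

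Cytoplasmic ribosomal proteins had negative fold changes in 41 of 43 cases, with a median of -0.48. With all libraries 7 were called lower by limma's adjusted p, a share near the 12.0% over all genes. Without HF library 1, 0 were called lower by that p (5.27% over all genes), where 3 passed an unadjusted p. Rpl23 was at 842, 618 and 723 FPKM in HF and at 382, 433, 437, 453 and 617 FPKM in recovery. Recovery library 5 lay just under the lowest HF library, and Rpl23 fell by 0.65 on the log2 scale (SE 0.20, adjusted p = 0.0201), while the value without HF library 1 was -0.54 (adjusted p = 0.114). Rps20 was at 2707, 1583 and 1892 and at 796, 1238, 1028, 1093 and 1824 FPKM and fell by 0.80 on the log2 scale (SE 0.27, adjusted p = 0.0354), while the value without HF library 1 was -0.59 (adjusted p = 0.211). Control library 5 was also the highest of its group for both, at 760.5 and 2098 FPKM.

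**Figure D5:**
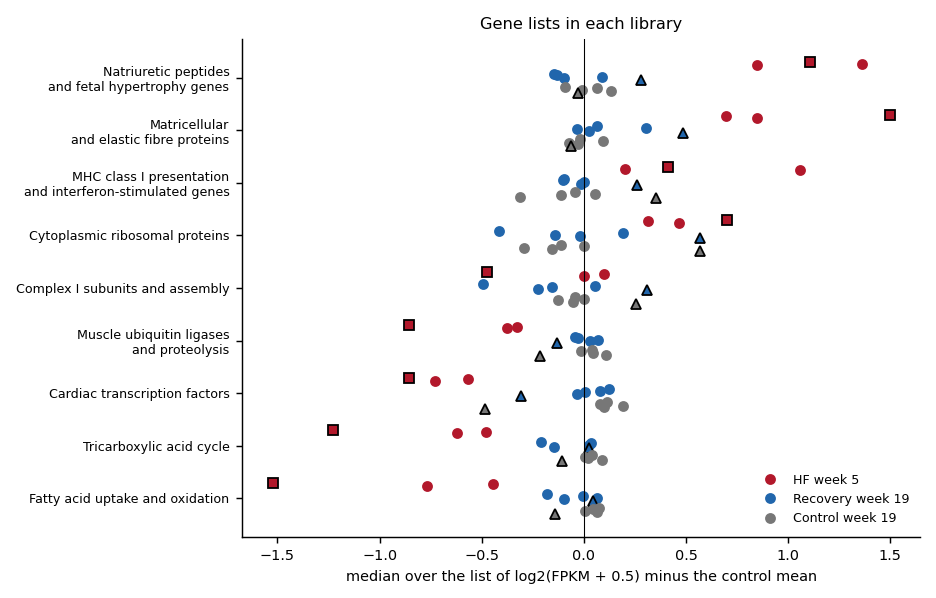
Median over the tested genes of 9 lists of log2(FPKM + 0.5) minus the control mean, in every HF, recovery and control library. The black-edged square is HF library 1 and black-edged triangles are library 5 of recovery and control. HF and recovery points overlap for complex I, the interferon and MHC class I list and cytoplasmic ribosomal proteins, and are apart for the other lists shown.

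Set beside control of week 19, the recovery libraries showed few differences. The recovery and HF comparisons with control share the control libraries, so their values are given side by side only. Of 12759 genes, 3 (0.0235%) were called higher in recovery than in control and 0 (0.00%) lower with limma, and 367 (2.88%) passed an unadjusted p of 0.05. The 3 were Actc1, Myl2 and C130080G10Rik, each listed at 0 in all control libraries. List medians of recovery minus control were -0.065 for fatty acid oxidation, -0.060 for the tricarboxylic acid cycle and -0.018 for ubiquitin ligases. For collagens and matricellular genes they were 0.24 and 0.23, and for macrophage markers 0.44, against -0.012 over all genes.

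Single genes are given here with their spread. Postn was at 4.99 ± 1.53 FPKM (SD, n = 5) in recovery and at 5.34 ± 1.82 FPKM (SD, n = 5) in control, after 21.3 ± 11.8 FPKM (SD, n = 3) in HF. Acadm was at 545 ± 59.4 FPKM (SD, n = 5) in recovery, at 571 ± 43.8 FPKM (SD, n = 5) in control and at 224 ± 100.1 FPKM (SD, n = 3) in HF. Adrb1 was at 4.74 ± 0.980 FPKM (SD, n = 5) in recovery, at 4.86 ± 1.13 FPKM (SD, n = 5) in control and at 1.78 ± 0.935 FPKM (SD, n = 3) in HF. Comp, a fibroblast matrix protein, was at 2.42, 3.06, 1.69, 1.68 and 6.74 FPKM in recovery and at 1.04, 1.49, 0.865, 0.821 and 0.295 FPKM in control, where every recovery library was above every control library. Its recovery minus control value was 1.27 on the log2 scale (adjusted p = 1). Cxcl14 was at 32.2, 36.3, 37.4, 26.4 and 34.0 FPKM in control, each below the lowest recovery library, with 0.54 (adjusted p = 1). A p above the threshold does not show that recovery and control hearts were alike.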

How the data were processed

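RNA from 24 libraries of mouse heart was sequenced in pairs of reads. The authors ran TopHat against mouse genome MGSCv37 (mm9), estimated expression with Cuffdiff and deposited FPKM for each gene, 1 column per library, except that recovery week 9 has 2 columns for 3 labelled samples. The annotation and any scaling between libraries are not given in the sources used here. Total read numbers are also not given there, and the number of libraries limits the precision. Column names gave groups. A further 5 columns carry the name of the week 5 controls, of which the labels give 4 samples, so these columns could not be matched and were not used.

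The limma package (version 3.58.1, R 4.3.3) was fitted to log2(FPKM + 0.5), with 8 group means, 16 residual degrees of freedom, a mean-variance trend and 2-sided moderated tests. A gene was kept if its values averaged 0.5 FPKM or more, which left 12759 of 29955. Calls used the Benjamini-Hochberg adjusted p at 0.05 over all genes tested. Figures and tables were made with Python 3.11.15. Promoters, 250 bases before to 50 after the start, came from RefSeq (GRCm38.p6), and 6 motifs were searched.

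Members and lists were chosen with earlier results of these data known. The 40 lists hold 864 genes, of which 814 were tested, and a list is described by its counts and median. Genes named were taken from the 10 largest rises and 10 largest falls among called genes whose groups did not overlap, the same ranking without HF library 1 among genes called both ways, in each list the 4 most abundant members and up to 5 called members with the largest change, and marker genes where a library stood apart. Not every gene so picked is described. Any other gene is said to be named after its values were seen. Alternatives were the pseudocount, the low-value filter, the scaling, the groups in the fit, array weights, robust estimation, the unadjusted p, and each library left out.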

Additional observations from a re-analysis of the deposited data

Results flagged for a closer look

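For the genes named in the text, the 5 recovery and 5 control libraries were examined for a single library whose gap to its neighbour took up an unusual share of the group's range. Of the 270 groups examined, 54 were marked. Chance alone is known to mark about 1 in 20 groups, but these genes were chosen in part for their values, so the number of marks is no test. Library 5 accounted for 19 of the marks in recovery and for 27 in control.

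Recovery library 5 stood apart for genes of matrix, natriuretic peptides and other kinds. It was the highest for B2m (686 FPKM), Brms1 (13.9 FPKM), C4a (12.8 FPKM), Cilp (5.58 FPKM), Col16a1 (6.87 FPKM), Comp (6.74 FPKM), Fmod (1.58 FPKM), Gpx3 (485 FPKM), Mfap4 (22.9 FPKM), Nppb (889 FPKM), Oaz2 (29.1 FPKM), Pmi (16.8 FPKM), Postn (7.66 FPKM), Thbs4 (3.92 FPKM), Timp1 (22.8 FPKM), Tuba8 (216 FPKM) and Upk3b (0.371 FPKM). It was the lowest for Gja3 (2.05 FPKM) and Klhl38 (4.73 FPKM).

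Control library 5 stood apart for more genes. It was the highest for 2410129H14Rik (7.46 FPKM), Brms1 (19.3 FPKM), Egfl7 (123 FPKM), Emcn (53.4 FPKM), Ifit1 (3.97 FPKM), Ifit3 (8.45 FPKM), Msln (0.328 FPKM), Oaz2 (33.6 FPKM), Pmi (20.8 FPKM), Rpl23 (760.5 FPKM), Rps20 (2098 FPKM), Sparc (271 FPKM) and Stat2 (6.25 FPKM). It was the lowest for Adrb1 (2.84 FPKM), Hadh (300.5 FPKM), Idh3b (330.1 FPKM), Jph1 (0.661 FPKM), Kcnip2 (16.4 FPKM), Kcnj11 (28.4 FPKM), Nkx2-5 (73.7 FPKM), Nudcd3 (2.95 FPKM), Palld (5.46 FPKM), Pfkm (267 FPKM), Prkar2a (2.55 FPKM), Scn4b (5.17 FPKM), Smoc2 (7.71 FPKM) and Tbx5 (1.79 FPKM). Other marks were spread over other libraries. Adipoq was highest in control library 4 (0.0960 FPKM), Atp2a2 was highest in recovery library 3 (1926 FPKM), Ccl11 was highest in recovery library 2 (9.75 FPKM), Col8a1 was highest in recovery library 2 (2.45 FPKM), Cspg4 was highest in recovery library 1 (4.64 FPKM), Ifit1 was lowest in recovery library 2 (1.09 FPKM), Oasl2 was lowest in control library 4 (1.94 FPKM) and Tagln was lowest in control library 4 (22.3 FPKM).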

How the results depend on the processing

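Counts of genes called higher and lower, 1567 and 1525, stayed within 1.5 times under most alternatives. They were 1019 and 901 without HF library 1 and recovery library 5. Array weights gave 2429 lower and the unadjusted p 2460 lower. Leaving the HF week 3 libraries out of the fit gave 2138 higher and 2187 lower. With any 1 HF or recovery library left out, 876 to 1626 were higher and 669 to 1629 lower, with the smallest counts without HF library 1. Without that library, the unadjusted p gave 1733 higher and 1751 lower. Median centring moved the higher share of the calls from 50.7% to 60.3%, and quantile normalization to 55.6%.

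Of 124 genes named with a call, 96 kept it in every alternative, 17 lost it without HF library 1 and 0 changed sign. Genes without a call did change sign. With array weights Idh2 gave -0.0384, Ndufa3 -0.1898, Sdhb -0.1159 and Tbx5 0.5534. Without HF library 1 and recovery library 5 they gave -0.189, -0.2509, -0.212 and 0.6994. With any 1 library left out Idh2 ranged from -0.1174 to 0.5585, Ndufa3 from -0.1384 to 0.2209, Sdhb from -0.1031 to 0.2983, Tbx5 from -0.9985 to 0.6381 and C1qa from -0.367 to 0.0669. The cause was not tested. Of 40 list medians, 13 changed sign under some alternative, among them both respiratory chain lists and the sarcomere list, which turned negative without HF library 1. Median centring turned the medians of the TGF beta pathway (0.0102), the proteasome and the collagen processing enzymes (both 0.0492) positive, and quantile normalization those of collagen processing (0.0588) and the cell cycle (0.0115).

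No paired analysis was possible because the column names carry no number that the labels tie to an animal. The HF group rests on 3 libraries, of which 1 stood apart, total depth is unknown, and a p above the threshold does not show that values did not differ.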

Other observations

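Some list members were described by no comparison above. Of 15 integrated stress response targets, 4 were higher and 1 lower (12.3% and 12.0% over all genes), and 1 and 1 without HF library 1, shares near the 6.90% and 5.27% over all genes. Of 10 acute-phase and metallothionein genes 2 were lower with all libraries by limma's adjusted p (12.0% over all genes). Without HF library 1, 0 were lower by that p (5.27% over all genes), where 2 passed an unadjusted p. The list median turned from -0.49 to 0.10 without HF library 1. Of 11 tested genes that the study names for endothelial and mesenchymal transition 2 were lower (12.0% over all genes). The last list holds only a part of the set chosen by the study, whose other genes were not used here, and is not independent evidence of its direction.

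Exact zeros separate groups for a few very abundant genes. Mb, myoglobin of the cardiomyocyte, is listed at 12215, 23448 and 22956 FPKM in the HF libraries and at 0 in all recovery and control libraries. The transcript AK163440 is listed at 6185, 7762 and 9495 FPKM in HF and at 0 in the same libraries. Myl2, the ventricular myosin light chain, is listed at 10778, 36208 and 35940 FPKM in HF, at 22538, 31697, 28255, 26221 and 40594 FPKM in recovery and at 0 in all 5 control libraries. Since heart muscle uses these genes throughout, only the listing is given and no fold. Of the genes tested, 22 were listed at 0 in all libraries of HF or of recovery but not of both.

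Ucp1, the uncoupling protein of brown fat, is listed at 13.03, 1.68 and 0.292 FPKM in HF and at 0 in all recovery and control libraries. Krt14, an epithelial keratin, is listed at 4.62, 1.04 and 0 FPKM in HF and at 0 in every recovery library. Both were named after their values were seen.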
